A study of Caenorhabditis elegans with 6 samples.

Results

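The nuclear hormone receptor genes of Caenorhabditis elegans were examined as the 268 genes, of 46926 in the deposited gene table, whose symbol is nhr- followed by a number, with nhr-57 left out. All are annotated as protein-coding. RNA came from whole wild-type N2 animals between late L4 and young adulthood. One group received 25 µM chaetocin, a toxin from fungi that is applied as a lysine methyltransferase inhibitor, and the other its vehicle DMSO. Both groups spent 5 hours in liquid buffer with heat-treated OP50 bacteria as food, and each gave 3 libraries that the labels number as biological replicates. Nothing in the labels says that these were separate cultures, and the p-values therefore reflect only the spread among the 3 libraries of a group, which may be technical.

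Nuclear hormone receptors are transcription factors with a zinc finger domain that binds DNA and a domain that can bind small lipophilic ligands such as steroids, fatty acids and xenobiotics. Nematodes have a greatly expanded family, most of it descended from a single ancestor like the vertebrate HNF4 receptor. A few worm receptors have clear counterparts in flies and vertebrates and act in moulting and development, others govern fat and amino acid metabolism or detoxification in the intestine, and for most no ligand is known.

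Values are FPKM, fragments scaled by transcript length and by library size, after further scaling between libraries. A gene was tested if it reached 0.5 FPKM in at least 3 libraries. It was called higher or lower where limma, fitted to all 15213 such genes, gave a Benjamini-Hochberg adjusted p under 0.05. Fold changes are on the log2(FPKM + 0.1) scale, chaetocin over DMSO, and understate the change of genes with low values. The gene table holds no counts, so the depth per library is unknown. The authors' deposited table gives mean normalized counts, with a median of 56.5 counts for each FPKM among the receptor genes tested.

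Receptor transcripts were scarce. Over the 6 libraries the 268 genes had a median of 1.78 FPKM, against 3.97 FPKM for all 19985 protein-coding genes. 15 of them were listed at 0 in every library, which does not show that they are absent, and 26 reached a mean of 10 FPKM. The most abundant was nhr-49, a regulator of fatty acid breakdown and of the response to fasting, at 65.5, 64.7 and 66.1 FPKM with chaetocin and 71.3, 70.3 and 65.1 FPKM with DMSO. Next came nhr-66, a partner of NHR-49 in lipid metabolism, nhr-86, which takes part in defence against pathogens, nhr-274 and nhr-68, and then nhr-23, nhr-97, nhr-114, nhr-46, nhr-88, nhr-35 and nhr-71. Of these 12, nhr-68 was the 1 gene called, and the log2 fold changes of the other 11 lay between -0.20 and 0.11. Summed over the family, chaetocin libraries held 1096, 1086 and 1122 FPKM and DMSO libraries 1063, 1068 and 1052 FPKM. The chaetocin sums lay above the DMSO sums by a small margin. The 17 genes called different, described next, held 122.8, 122.9 and 124.2 FPKM of them with chaetocin and 75.6, 77.9 and 79.8 FPKM with DMSO. The choice of those 17 genes by their difference fixes this gap. The rest of the family was at 973, 963 and 998 FPKM with chaetocin and 987, 990 and 972 FPKM with DMSO, with overlapping groups. In whole animals, fewer cells of a type and less RNA per cell cannot be told apart.

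Of the 268 genes, 174 passed the filter and 94 did not. Among the 174, 15 were called higher and 2 lower with chaetocin. That is 8.62% higher, where 5.53% of all genes tested were called higher, and 1.15% lower, where the share of all genes was 2.92%. Together 9.77% of the receptor genes tested were called, close to the background of 8.45%. The median log2 fold change was 0.05 over the receptor genes tested and -0.000496 over all genes tested. At least 2-fold changes were called in 7 receptor genes upward (4.02%, background 2.15%) and in 1 downward (0.575%, background 0.526%). The chaetocin libraries lay wholly above the DMSO libraries in 40 receptor genes (23%, background 14.5%) and wholly below them in 21 (12.1%, background 11.6%). The count of 15 higher genes was lower in each fit with 1 library left out, and such a fit also has fewer libraries. It was 8 without chaetocin replicate 1, 2 or 3. Without DMSO replicate 1 it was 9, without DMSO replicate 2 it was 10 and without DMSO replicate 3 it was 14. Over all genes, 842 higher became 605, 592 and 607 without chaetocin replicates 1, 2 and 3. They became 616, 620 and 846 without DMSO replicates 1, 2 and 3. Without chaetocin replicates 1, 2 and 3, 5.17%, 5.75% and 5.75% of receptor genes were called, against 5.98%, 5.9% and 6.15% of all genes. Without DMSO replicates 1, 2 and 3 the shares were 6.32%, 6.9% and 9.2%, against 6.07%, 5.88% and 8.91%. The 2 lower genes became 1 without chaetocin replicate 1, where nhr-202 was lost. Without chaetocin replicate 2 nhr-202 was lost too, but nhr-2 passed newly as a lower gene. The higher counts also hold genes newly past the threshold, nhr-210, nhr-193 and nhr-98 without DMSO replicates 1, 2 and 3 respectively. DMSO replicate 3 was the highest DMSO library in 9 of the 15 higher genes. How often this held over all higher genes was not counted, so it is not read as a trait of receptor genes. Over all genes tested, the first principal component placed DMSO replicate 3 nearest the chaetocin libraries. It lay at 29.3, against 38.2 and 36.1 for DMSO replicates 1 and 2. The genes nhr-123 and nhr-178 passed the filter through the chaetocin libraries alone and so had to differ to be tested. Of these, nhr-123 is among the 15 higher genes and among the 7 with an upward change of at least 2-fold.

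Calls were also counted by level. Among receptor genes tested with a mean under 1 FPKM 1 of 17 was higher, where 3.4% of all such genes were, and 0 were lower (background 0.897%). The 1 gene is nhr-123, which was tested only through its chaetocin libraries, so nothing is read from this band. From 1 to 2 FPKM 4 of 34 were higher (11.8%, background 3.9%) and 0 lower (background 1.67%), and from 2 to 5 FPKM 6 of 57 were higher (10.5%, background 5.88%) and 0 lower (background 2.4%). From 5 to 10 FPKM 2 of 40 were higher (5%, background 8.53%) and 1 lower (2.5%, background 3.55%). At 10 FPKM and over 2 of 26 were higher (7.69%, background 5.5%) and 1 lower (3.85%, background 3.58%). Apart from the lowest band, the share called higher was above the background in each band except that from 5 to 10 FPKM, and every such gap amounts to a few genes.

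**Figure D1:**
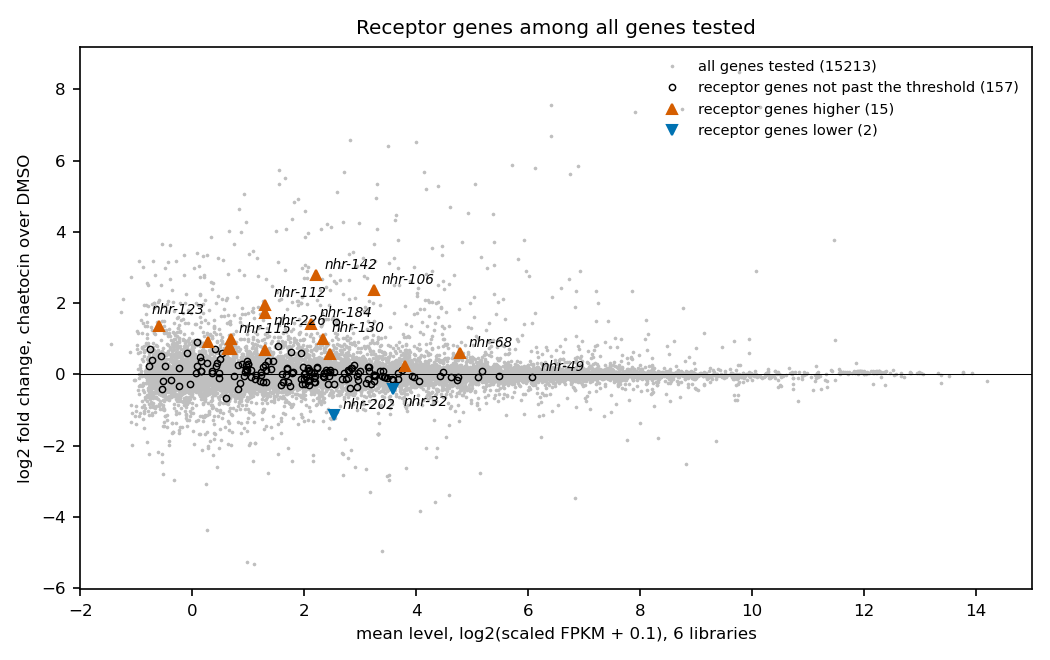
Each point is a gene tested, with its mean level over 6 libraries as log2(scaled FPKM + 0.1) on the x axis and its log2 fold change, chaetocin over DMSO, on the y axis. Orange triangles mark the 15 receptor genes called higher, blue triangles the 2 called lower and open circles the 157 not called, which lie mostly close to 0 on the y axis.

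The smallest adjusted p of the family was that of nhr-106, on chromosome V at 489620 to 491432 (WBcel235, plus strand). Its libraries stood at 16.2, 15.6 and 15.3 FPKM with chaetocin and at 2.91, 2.915 and 3.01 FPKM with DMSO. Every chaetocin library was several times higher than every DMSO library, with little spread within either group. The log2 fold change was 2.38 ± 0.07 (SE; limma, adjusted p = 6.55e-06), a 5.33-fold ratio of the means.

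nhr-142, on chromosome V at 5785957 to 5790553 (minus strand), had the largest fold change among the receptor genes tested. It was at 7.97, 7.97 and 7.84 FPKM in chaetocin libraries and at 1.05, 0.774 and 1.45 FPKM in DMSO libraries. The groups were far apart, and the chaetocin libraries were almost equal to each other. Its log2 fold change was 2.79 ± 0.21 (limma, adjusted p = 0.000293), a ratio of means of 7.27. The noncoding gene linc-92 overlaps an exon of nhr-142 on the same strand and was listed at 0 in all 6 libraries.

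A second group of receptor genes, expressed at low levels in control animals, rose with ratios of means between 2.77 and 4.10. nhr-112 was at 3.97, 4.03 and 3.42 FPKM with chaetocin and 1.15, 0.764 and 0.876 FPKM with DMSO (log2 fold change 1.94 ± 0.18; limma, adjusted p = 0.000789). nhr-226 was at 3.57, 4.08 and 3.37 FPKM with chaetocin and 1.06, 1.14 and 0.915 FPKM with DMSO (log2 fold change 1.73 ± 0.15; limma, adjusted p = 0.000542). All lie on chromosome V, nhr-112 at 16722061 to 16723844, nhr-226 at 2294877 to 2296977 and nhr-184 at 2212871 to 2214478. nhr-184 stood at 6.77, 6.39 and 5.51 FPKM with chaetocin and 2.36, 2.14 and 2.24 FPKM with DMSO (log2 fold change 1.42 ± 0.11; limma, adjusted p = 0.000421). In all 3 genes the lowest chaetocin library exceeded the highest DMSO library by over 2-fold. nhr-130 rose with a ratio of means of 2.04, at 6.81, 6.36 and 6.83 FPKM with chaetocin and 3.30, 3.16 and 3.36 FPKM with DMSO (log2 fold change 1.005 ± 0.08; limma, adjusted p = 0.000536). The groups of nhr-130 did not overlap.

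nhr-68, on chromosome V at 11573440 to 11575709, combined a high level with a call. Its product works with NHR-10 to switch on an alternative route of propionate breakdown when vitamin B12 is low. Chaetocin libraries held 32.1, 31.9 and 35.7 FPKM of nhr-68 and DMSO libraries 21.3, 21.04 and 23.4 FPKM. The groups did not overlap, and the log2 fold change was 0.60 ± 0.07 (limma, adjusted p = 0.00187). The calls of nhr-106, nhr-142, nhr-112, nhr-226, nhr-184, nhr-130 and nhr-68 were kept under all 14 alternative settings tried, each library left out in turn included.

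**Figure D2:**
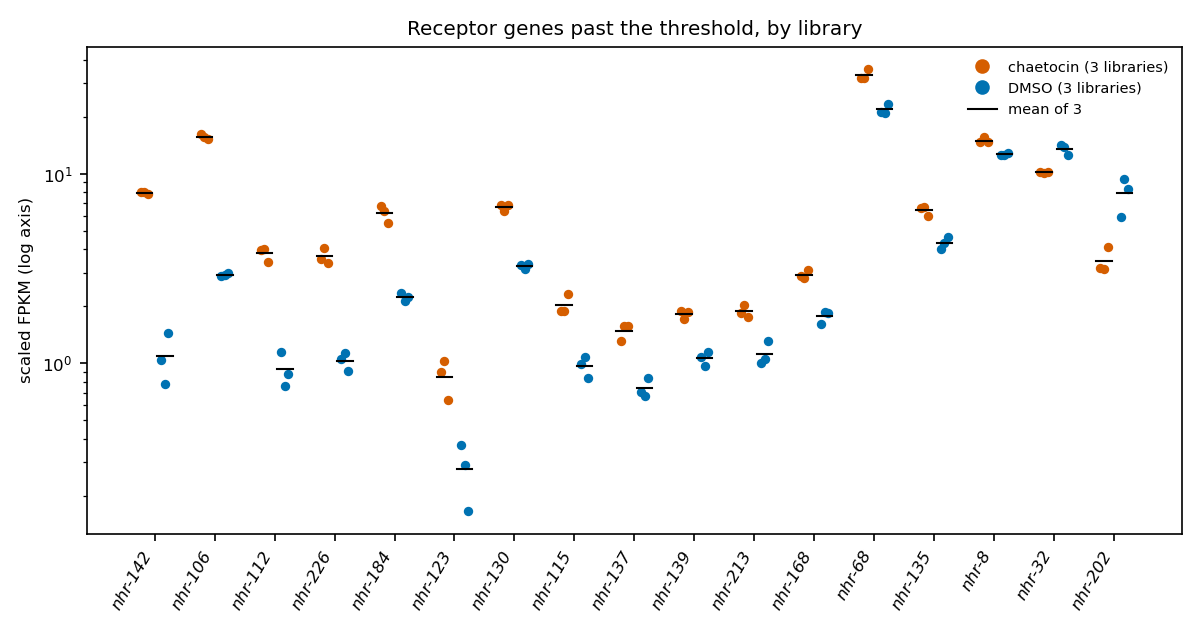
Scaled FPKM on a log axis for the 17 receptor genes called, ordered by log2 fold change, with 3 chaetocin libraries (orange, left) and 3 DMSO libraries (blue, right) for each gene and bars at the group means. In each of the 17 genes the groups do not overlap, from nhr-142 at the left to nhr-202 at the right.

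The remaining calls upward rested on smaller changes or lower levels, and each was lost in at least 1 of 6 fits with 1 library left out. nhr-115 was at 1.89, 1.89 and 2.32 FPKM with chaetocin and 0.995, 1.08 and 0.837 FPKM with DMSO. Its log2 fold change of 0.9985 ± 0.17 was past the threshold in 5 of 6 fits with 1 library left out and not without chaetocin replicate 3. nhr-137 had 1.31, 1.57 and 1.57 FPKM with chaetocin and 0.704, 0.673 and 0.837 FPKM with DMSO, and its call was lost without each library other than DMSO replicate 3. Both genes separated the groups by a wide gap at levels near 1 FPKM.

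nhr-168 stood at 2.94 ± 0.136 FPKM with chaetocin and 1.77 ± 0.143 FPKM with DMSO, and nhr-135 at 6.42 ± 0.397 FPKM with chaetocin and 4.31 ± 0.312 FPKM with DMSO (SD, n = 3 each). Each was called in 2 of 6 fits with 1 library left out, nhr-168 without DMSO replicate 2 or 3 and nhr-135 without chaetocin replicate 3 or DMSO replicate 3. nhr-139 was at 1.83 ± 0.101 FPKM with chaetocin and 1.07 ± 0.0934 FPKM with DMSO, and nhr-213 at 1.88 ± 0.139 FPKM with chaetocin and 1.125 ± 0.166 FPKM with DMSO. Both of these calls were lost without each library other than DMSO replicate 3. The nhr-213 call was kept in 4 of 14 alternative settings. It was also lost without scaling, with upper quartile scaling and with either other filter. nhr-123, the gene with the lowest level among those called, was at 0.896, 1.02 and 0.639 FPKM with chaetocin and 0.372, 0.292 and 0.166 FPKM with DMSO, and its call (limma, adjusted p = 0.0467) was lost without any 1 of the 6 libraries.

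The 2 genes called lower were nhr-202 and nhr-32. nhr-202 was at 3.20, 3.16 and 4.09 FPKM with chaetocin and 5.89, 9.41 and 8.32 FPKM with DMSO (log2 fold change -1.14 ± 0.19; limma, adjusted p = 0.0136). The DMSO libraries spread more widely than the chaetocin libraries but did not reach them. Without chaetocin replicate 1 or 2 the call was lost, with adjusted p up to 0.0539. An exon of nhr-202 overlaps one of its neighbour nhr-201 on the same strand. nhr-201 was at 1.89, 2.02 and 1.66 FPKM with chaetocin and 1.61, 1.65 and 2.05 FPKM with DMSO, and these groups overlapped. nhr-32 stood at 10.2, 10.1 and 10.2 FPKM with chaetocin and 14.3, 13.8 and 12.6 FPKM with DMSO. Its groups were separate, and the log2 fold change was -0.41 ± 0.06 (limma, adjusted p = 0.0103). nhr-57, a HIF-1 target set apart from the family here, was at 3.73 ± 0.116 FPKM with chaetocin and 5.67 ± 0.0887 FPKM with DMSO (log2 fold change -0.59; limma, adjusted p = 0.00533).

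The 8 genes named next had the largest fold changes among those that missed the threshold. nhr-98 came first, at 8.09, 7.91 and 9.01 FPKM with chaetocin and 1.88, 2.21 and 5.997 FPKM with DMSO. DMSO replicate 3 stood apart from the other DMSO libraries, though still below every chaetocin library. The log2 fold change was 1.47 ± 0.40 (limma, adjusted p = 0.0819), and without DMSO replicate 3 it was 1.98 and past the threshold (adjusted p = 0.000482). nhr-6, the worm counterpart of the NR4A receptors, had 1.44, 1.04 and 1.33 FPKM with chaetocin and 0.724, 0.714 and 0.477 FPKM with DMSO (limma, adjusted p = 0.0673). The chaetocin libraries of nhr-6 lay above all DMSO libraries at low levels. nhr-210, nhr-178, nhr-237, nhr-206 and nhr-193 had log2 fold changes between 0.61 and 0.80, and nhr-11 one of -0.65, with limma adjusted p between 0.0558 and 0.238. Of the 157 genes tested and not called, 29 had an unadjusted p under 0.05. The 95% interval of the change lay within 1.5-fold either way for 102 of the 157 and reached beyond 2-fold for 16.

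The 94 genes below the filter had low values in both groups. The largest gap between group means among them was that of nhr-282, at 0.139, 0.143 and 0.0599 FPKM with chaetocin and 0.392, 0.623 and 0.146 FPKM with DMSO. nhr-124 followed, at 0.378, 0.358 and 0.160 FPKM with chaetocin and 0.0201, 0.101 and 0.166 FPKM with DMSO, with overlapping groups. nhr-246, nhr-245 and nhr-234 had still smaller gaps.

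Most of the family lies on chromosome V, which holds 166 of the 268 genes (61.9%) and 25% of all protein-coding genes. Of the 110 receptor genes tested there, 13 were called higher (11.8%) and 1 lower (0.909%). The 13 include nhr-123, which was tested only through its chaetocin libraries and so had to differ. Chromosome V also had the largest share of calls among all genes, with 9.21% of its 2964 genes tested called higher and 4.59% lower. The shares for its receptor genes are read against these and not against the whole genome. The median log2 fold change was 0.12 over the receptor genes of chromosome V and 0.01 over all its genes tested. Outside it, nhr-8 was called higher on chromosome IV, 1 of 26 receptor genes tested there, where 5.91% of all genes tested were higher and 3.17% lower. On X, 1 of 16, nhr-137, was higher and 1, nhr-32, lower (background 6.09% and 4.35%). The background was 3.14% higher and 1.05% lower on chromosome I, 4.48% and 2.52% on II, and 3.78% and 1.66% on III, and 0 of the 22 receptor genes tested on chromosomes I, II and III passed in limma, with 4 of them at an unadjusted p under 0.05.

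Receptor genes often sit next to each other. With no other protein-coding gene between them, 137 of the 268 formed 44 runs, the longest of 9 genes (nhr-185 to nhr-124, none above the filter). On chromosome V, 3 runs held more than 1 call (coordinates of WBcel235). In the run from nhr-99 to nhr-106 (474778 to 491432) nhr-130 and nhr-106 rose. Between and beside them nhr-99, nhr-55, nhr-212 and nhr-211 had log2 fold changes of 0.07, -0.34, -0.13 and -0.41 and were not called. In the run from nhr-228 to nhr-226 (2281759 to 2296977) the adjacent genes nhr-115 and nhr-226 rose, while nhr-228, nhr-227 and nhr-225 had log2 fold changes of 0.17, -0.28 and 0.03. The run from nhr-123 to nhr-201 (451451 to 467509) held a higher gene, nhr-123, and a lower one, nhr-202, with nhr-98 (log2 fold change 1.47, not called) beside nhr-123. Since nhr-123 was tested only through its chaetocin libraries and its call was lost without any 1 library, this run holds 1 call without it, and 2 runs then hold more than 1. In the other 2 runs both called genes were higher, and differences between neighbours were not tested. RSEM, which the authors used, shares fragments between near-identical copies by estimation, and how alike the copies in a run are was not examined.

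**Figure D3:**
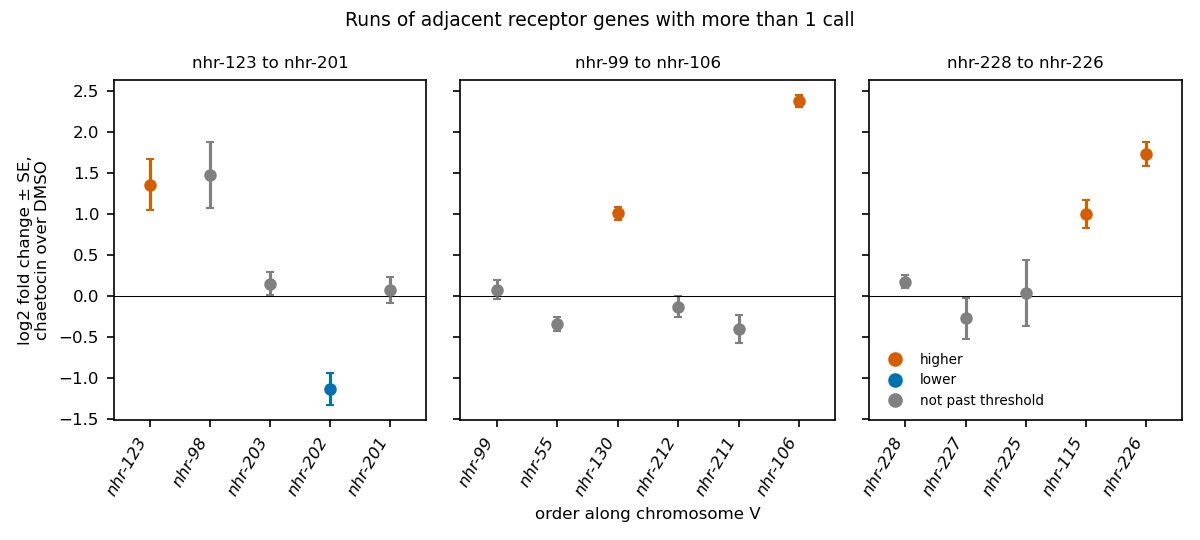
Log2 fold change, chaetocin over DMSO, with its standard error for the genes of the 3 runs of adjacent receptor genes with more than 1 call, in their order along chromosome V. Orange marks genes called higher, blue the one called lower and grey those not called. Each run also holds genes not called, among them nhr-98, which lies well above 0.

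Receptors were next read by role. The members of each list were chosen with earlier results of these data known. Over all genes tested 5.53% were called higher and 2.92% lower, 8.45% in all, and in lists this short 0 calls are near that background. Among 9 receptors listed for xenobiotics, pathogens and metals, nhr-8 and nhr-112 were called higher and 0 lower (background 5.53% and 2.92%). nhr-8, a relative of the vertebrate vitamin D receptor that protects worms against toxins and acts in cholesterol balance, stood at 14.7, 15.6 and 14.7 FPKM with chaetocin and 12.6, 12.6 and 12.9 FPKM with DMSO. The groups were separate but close (log2 fold change 0.24 ± 0.05; limma, adjusted p = 0.0379). That call was lost without any 1 of the 6 libraries, with adjusted p up to 0.152. An exon of nhr-8 overlaps F33D4.6 on the other strand, which had a mean of 0.421 FPKM with chaetocin and 1.06 FPKM with DMSO. It is not known here whether fragments were assigned by strand, so reads of the 2 genes may be mixed.

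The other receptors of that list did not pass. nhr-86, an HNF4-like receptor that takes part in sensing a toxic bacterial metabolite, was at 37.1, 38.1 and 37.3 FPKM with chaetocin and 36.4, 35.4 and 32.9 FPKM with DMSO. Its chaetocin libraries lay just above its DMSO libraries, with a log2 fold change of 0.11 (95% interval -0.007 to 0.22; limma, adjusted p = 0.277). nhr-176, needed to metabolise the drug thiabendazole, averaged 3.82 ± 0.443 FPKM with chaetocin and 4.36 ± 0.564 FPKM with DMSO. The 95% interval of its log2 fold change, -0.52 to 0.15, was wider, and its known target cyp-35D1 was below the filter. nhr-48, nhr-14, nhr-45, nhr-42 and nhr-70 had log2 fold changes between -0.15 and 0.10 and did not pass, all with limma adjusted p above that of nhr-8. The chaetocin libraries of nhr-48 lay wholly below its DMSO libraries (limma, unadjusted p = 0.0314).

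Of 10 receptors of lipid metabolism and fasting, 0 were called in either direction in limma (background 8.45%), although nhr-28 had an unadjusted p of 0.0112. nhr-49 had a log2 fold change of -0.07 (95% interval -0.18 to 0.03; limma, adjusted p = 0.404). nhr-80, which regulates fatty acid desaturases, was at 13.2, 11.9 and 11.2 FPKM with chaetocin and 12.5, 12.6 and 14.7 FPKM with DMSO. These libraries overlapped. nhr-13, nhr-66, nhr-62, nhr-64, nhr-69 and nhr-76 had log2 fold changes between -0.14 and 0.09, and nhr-25 and nhr-28 of -0.20 and -0.27.

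Target genes listed for NHR-49 moved in both directions, with 3 of 11 called higher and 1 lower (background 5.53% and 2.92%). hacd-1, a gene of fatty acid oxidation, rose to 33.4 ± 1.24 FPKM with chaetocin, against 19.3 ± 0.328 FPKM with DMSO, and sodh-1, an alcohol dehydrogenase gene, to 186 ± 2.36 FPKM with chaetocin, against 107 ± 8.41 FPKM with DMSO. The desaturase gene fat-5 rose with a log2 fold change of 0.23 ± 0.05 and fat-6 fell with one of -0.48 ± 0.04 (limma, adjusted p = 0.0245 and 0.0006). acs-2, a common reporter of NHR-49 activity, was at 1.03 ± 0.211 FPKM with chaetocin and 0.835 ± 0.0763 FPKM with DMSO (limma, adjusted p = 0.567), and fmo-2 was below the filter. The fat-5 call was lost without any 1 chaetocin library or DMSO replicate 1.

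Of the 3 receptors of propionate breakdown and the methionine cycle, nhr-68 was the 1 called (background 8.45%). nhr-10 was at 12.9, 12.8 and 12.96 FPKM with chaetocin and 12.3, 12.9 and 12.4 FPKM with DMSO, with overlapping groups and a 95% interval of -0.09 to 0.16 for its log2 fold change. nhr-114, which acts on the methionine cycle under low vitamin B12, was at 24.5, 23.3 and 24.4 FPKM with chaetocin and 24.8, 24.8 and 26.04 FPKM with DMSO (limma, adjusted p = 0.464). Of 5 genes of the propionate shunt that NHR-10 and NHR-68 activate, 2 were called higher and 0 lower (background 5.53% and 2.92%). acdh-1, the acyl-CoA dehydrogenase gene that reports on this route, was at 264 ± 2.31 FPKM with chaetocin and 197 ± 8.18 FPKM with DMSO. hphd-1, which encodes a dehydrogenase of the shunt, was at 38.5 ± 0.346 FPKM with chaetocin and 31.3 ± 0.840 FPKM with DMSO. hach-1, ech-6 and alh-8 had log2 fold changes of 0.12, 0.16 and -0.09 and did not pass. The chaetocin libraries of hach-1 and ech-6 lay wholly above the DMSO libraries (limma, unadjusted p = 0.0163 and 0.012), and those of alh-8 overlapped. Among 7 methionine cycle genes, 1 was called lower and 0 higher (background 2.92% and 5.53%). This was sams-1, an S-adenosylmethionine synthetase gene, at 53.8 ± 1.98 FPKM with chaetocin and 72.9 ± 1.56 FPKM with DMSO.

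Of 10 receptors of moulting and development 0 were past the limma threshold (background 8.45%), with nhr-6 and nhr-2 at an unadjusted p under 0.05. nhr-23, the counterpart of the ROR receptors and a driver of the moulting cycle, was at 25.96, 26.1 and 26.7 FPKM with chaetocin and 29.2, 27.1 and 26.1 FPKM with DMSO. These values overlapped, and the 95% interval of the log2 fold change was -0.19 to 0.06. nhr-25, the Ftz-F1 counterpart, nhr-41, nhr-85, a relative of Rev-Erb, nhr-91 and nhr-67, a relative of tailless, had intervals that included 0 and overlapping groups, as did nhr-40. nhr-60 had an interval that included 0, though its chaetocin libraries lay above its DMSO libraries. nhr-2, expressed in the early embryo, was at 5.30, 7.02 and 5.76 FPKM with chaetocin and 8.15, 7.24 and 8.16 FPKM with DMSO (limma, adjusted p = 0.125). Its chaetocin libraries were all lower, and nhr-2 passed the threshold without chaetocin replicate 2 (adjusted p = 0.0459). Of 12 genes listed for NHR-23 and moulting, 0 rose and 1 fell (background 5.53% and 2.92%). lin-42, the worm period gene, fell to 3.20 ± 0.752 FPKM with chaetocin, against 5.78 ± 0.779 FPKM with DMSO. The lin-42 call was lost without chaetocin replicate 2 or 3 or DMSO replicate 1 or 2. The largest fold change of that list was that of the collagen gene rol-6, at 0.407 ± 0.3596 FPKM with chaetocin and 1.81 ± 0.769 FPKM with DMSO (log2 fold change -2.05 ± 0.57; limma, adjusted p = 0.0854). The moulting gene mlt-10 was at 1.70 ± 0.0843 FPKM with chaetocin and 2.51 ± 0.382 FPKM with DMSO (limma, adjusted p = 0.101). Both had an unadjusted p under 0.05 and chaetocin libraries wholly below the DMSO libraries. rol-6 passed the threshold without chaetocin replicate 1 and mlt-10 without DMSO replicate 3. Negative log2 fold changes were found in 11 of the 12 genes, while 49.9% of all genes tested had one above 0. The count is not read as a shared fall. In mlt-8, mlt-11, nas-36, noah-1, dpy-7, fbn-1 and qua-1 the groups overlapped, and mlt-11 and nas-36 were at -0.02 and -0.05. DMSO replicate 3 was the highest DMSO library in mlt-8, mlt-11, noah-1, dpy-7 and qua-1. A list of 10 conserved receptors, which shares members with these lists, had 9 tested, and nhr-111 was below the filter. Of the 9, nhr-8 was called higher and 0 lower (background 5.53% and 2.92%).

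**Figure D4:**
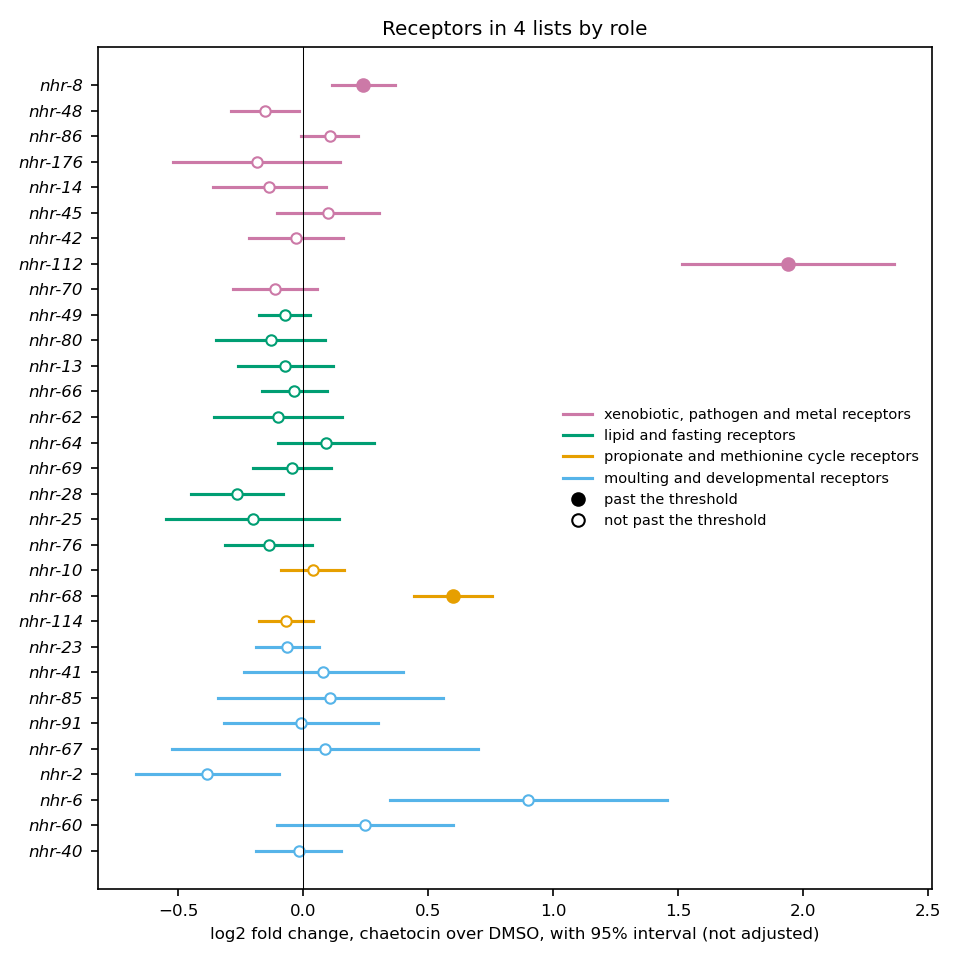
Log2 fold change, chaetocin over DMSO, with its unadjusted 95% interval for the receptors of 4 lists, coloured by list, with nhr-25 drawn once under lipid and fasting. Filled points mark the 3 called, nhr-8, nhr-112 and nhr-68, and open points the others, whose intervals mostly include 0.

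Nuclear receptors with other names gave no call: 0 of 4 tested passed in limma (background 8.45%), and sex-1 had an unadjusted p under 0.05. daf-12, the receptor for the steroid dafachronic acid, was at 8.28 ± 1.11 FPKM with chaetocin and 9.26 ± 0.352 FPKM with DMSO, and the zinc sensor gene hizr-1 at 1.62 ± 0.167 FPKM with chaetocin and 2.04 ± 0.193 FPKM with DMSO. Of 5 genes tested around DAF-12, 1 was called higher and 0 lower (background 5.53% and 2.92%). This was emb-8, which encodes the reductase that supplies electrons to cytochrome P450 enzymes. The emb-8 level was 91.2 ± 2.46 FPKM with chaetocin and 60.95 ± 5.43 FPKM with DMSO. daf-9, whose P450 product makes the DAF-12 ligand, was at 0.676 ± 0.116 FPKM with chaetocin and 0.585 ± 0.149 FPKM with DMSO (limma, adjusted p = 0.744). Of 6 coactivator genes 0 were called in limma (background 8.45%), with 2 at an unadjusted p under 0.05. The Mediator subunit gene mdt-15, whose product binds NHR-49, was at 56.9 ± 2.92 FPKM with chaetocin and 67.3 ± 4.86 FPKM with DMSO (limma, adjusted p = 0.0769). Of 4 immune genes listed beside NHR-86, 1 was called higher and 0 lower (background 5.53% and 2.92%). This was irg-7, at 54.5 ± 0.596 FPKM with chaetocin and 32.1 ± 2.17 FPKM with DMSO. irg-4, irg-5 and mul-1 were not called.

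Single transcripts were then fitted, with p-values adjusted over all 21002 transcripts tested. The 268 genes have 492 listed transcripts, of which 256 were tested, with 9 called higher (3.52%, background 3.13%) and 3 lower (1.17%, background 1.54%). Of the 12, 10 belong to genes called in the same direction. For nhr-142 the call rested on F44E7.8a.1, at 6.38, 5.74 and 6.25 FPKM with chaetocin and 0.784, 0.542 and 0.481 FPKM with DMSO (limma, adjusted p = 0.000637). The second nhr-142 transcript, F44E7.8b.1, was at 1.59, 2.23 and 1.55 FPKM with chaetocin and 0.251, 0.231 and 0.981 FPKM with DMSO and did not pass. For nhr-202 the transcript M02H5.4a.1 was lower, at 3.20, 3.16 and 3.69 FPKM with chaetocin and 5.64, 6.15 and 5.51 FPKM with DMSO. The other nhr-202 transcript, M02H5.4b.1, did not pass the filter and was listed at 0, 0 and 0.377 FPKM with chaetocin and 0.251, 3.25 and 2.88 FPKM with DMSO. The low and high DMSO values of M02H5.4b.1 fall in the same libraries as those of the gene. The nhr-202 transcript call was lost without chaetocin replicate 1 or 2 or DMSO replicate 1 or 2.

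The remaining 2 transcripts belong to genes that were not called. Each passed the filter through 1 group alone and so had to differ to be tested, and their values are given as a description. T09A12.4e.1 of nhr-66 was listed at 0.766, 2.34 and 2.24 FPKM with chaetocin and at 0.0804, 0 and 0 FPKM with DMSO. All 3 chaetocin values exceeded the DMSO values, while the main transcript T09A12.4f.1 was at 27.01, 28.4 and 29.1 FPKM with chaetocin and 28.3, 29.9 and 26.7 FPKM with DMSO. ZK662.3d.1 of nhr-48 was listed at 0 in all 3 chaetocin libraries and at 0.633, 0.813 and 0.5005 FPKM with DMSO. The nhr-66 transcript missed the threshold without chaetocin replicate 2 or 3 or DMSO replicate 2 or 3, and the nhr-48 transcript without any 1 of the 6 libraries. Other nhr-66 transcripts varied widely within a group, such as T09A12.4c.1 at 0.109, 3.01 and 6.17 FPKM with chaetocin and 5.65, 7.34 and 6.33 FPKM with DMSO. RSEM divides fragments between such isoforms by estimation, so a single isoform's level is less certain than that of its gene.

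**Figure D5:**
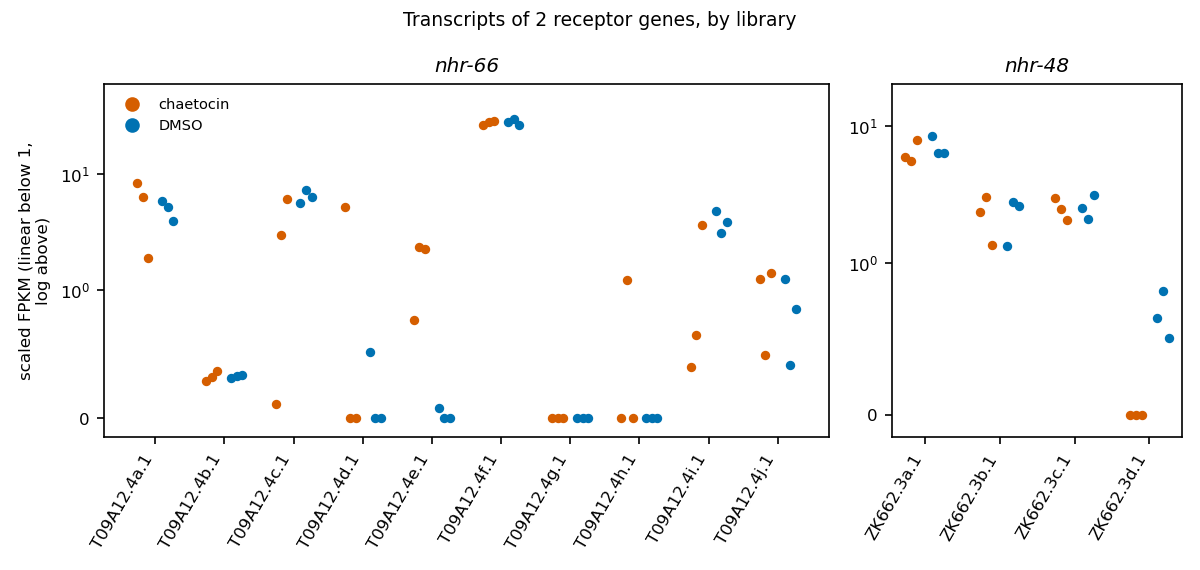
Scaled FPKM per transcript of nhr-66 (10 transcripts, left) and nhr-48 (4 transcripts, right), on an axis that is linear below 1 and log above, with chaetocin libraries in orange left of DMSO libraries in blue. T09A12.4e.1 is higher in all 3 chaetocin libraries, ZK662.3d.1 is listed at 0 in them, and most other transcripts overlap between the groups.

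Markers of tissues were read beside these results, since receptors of metabolism are known from the intestine. Of 6 intestine markers tested, 3 (act-5, ges-1 and ifb-2) were called higher and 0 lower (background 5.53% and 2.92%), and the sum of all 6 was 519 to 536 FPKM with chaetocin and 310.3 to 312.5 FPKM with DMSO. The brush border actin gene act-5 made up most of the gap, at 244 ± 4.19 FPKM with chaetocin and 60.7 ± 6.65 FPKM with DMSO, while the intestinal regulator elt-2 was at 10.4 ± 0.190 FPKM with chaetocin and 11.07 ± 0.225 FPKM with DMSO and was not called. The log2 fold changes of elt-2, elt-7 and vha-6, all not called, were -0.09, -0.05 and -0.13. Whether the amount of intestinal RNA plays a part in the receptor results was not tested. Of 36 body muscle, neuron, hypodermis, germline, oocyte and sperm markers 0 were called in limma (background 8.45%), with 4 at an unadjusted p under 0.05. The summed sperm markers were at 528 to 615 FPKM with chaetocin and 481 to 518 FPKM with DMSO, while the sums of the other 5 tissues overlapped between the groups.

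The authors' deposited table lists 201 of the 268 genes. At its p-value under 0.05, 19 were higher with chaetocin (9.45%, background 5.57%) and 5 lower (2.49%, background 3.49%), once its sign, DMSO over chaetocin, was turned. The 17 genes called here all had a p-value under 0.05 in the authors' deposited table, with mean normalized counts from 34.8 for nhr-123 to 1740 for nhr-68. Both comparisons use the same libraries, so this overlap is no independent support. The authors' deposited table gave nhr-106 a log2 fold change of 2.41 ± 0.119 and nhr-142 one of 2.87 ± 0.182. It also held nhr-6, nhr-193, nhr-206 and nhr-210 as higher, and nhr-11, nhr-34 and nhr-55 as lower, all of which missed the threshold in limma.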

How the data were processed

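Whole-animal RNA of 6 libraries, 3 with chaetocin and 3 with DMSO, was sequenced after library preparation with an mRNA kit. The submitters' processing notes name Trimmomatic 0.36, STAR 2.7.9a and RSEM 1.3.1 and the build WBcel235, with no settings. The authors deposited FPKM values per gene and per transcript, a unit read from the values themselves, since the headers do not state it. They also deposited a comparison table with a log2 fold change (DMSO over chaetocin, turned here), a p-value, and, as scores, a standard error and a mean normalized count. Whether that deposited p-value is adjusted is not stated. It lies close to Benjamini-Hochberg values computed from the fold changes and errors (median ratio 1.02).

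FPKM were scaled between libraries by the trimmed mean of their log ratios without weights (30% of ratios and 5% of means trimmed). The scaling factors lay between 0.977 and 1.03, and the libraries held summed FPKM of 1232966 to 1326067. Genes with 0.5 FPKM in 3 libraries were fitted as log2(FPKM + 0.1) with limma 3.58.1 in R 4.3.3, with variance moderation along the mean level, two-sided tests and Benjamini-Hochberg adjustment over all genes tested. Standard errors follow ± beside log2 fold changes, and the SD of 3 libraries follows it beside FPKM values. The scripts were tested on simulated data. FPKM keep no fragment counts, and their rounding did not allow whole fragments to be recovered. The first principal component (41.7% of variance) separated the treatments.

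The genes named are all those called, the 12 with the highest level, the 8 with the largest change among those not called, the 5 with the largest gap below the filter, the listed receptors, and listed partners, targets and markers. The members and lists were chosen with earlier results of these data known. Gene positions and types are from Ensembl annotation of WBcel235. Alternatives were other pseudocounts, filters and scalings, no variance trend, a replicate block and leaving out each library.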

Additional observations from a re-analysis of the deposited data

How the results depend on the processing

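With another pseudocount, filter or scaling, 11 to 15 receptor genes were called higher and 2 or 3 lower. Their share called either way was 5.14% to 10.1%, and that of all genes was 5.7% to 9.26%. Without the variance trend 18 were higher and 6 lower, while over all genes 802 were higher and 402 lower. That is 13.8% of receptor genes called and 7.91% of all genes. With 1 library left out, 8 to 14 receptor genes were higher and 1 to 2 lower. Of their transcripts, 7 to 8 were higher and 0 to 2 lower. Over all genes, 592 to 846 were higher and 274 to 510 lower. The listed receptors with other names, partners and targets, pooled, had 7 higher and 3 lower in the main fit. With 1 library left out this pooled set had 6 to 8 higher and 2 to 5 lower. Its share called was not computed, so these counts are not read against the background. Replicate numbers gave no clear pairing of the libraries: deviations from the group means correlated at 0.106, 0.0668 and -0.0265 for the numbers 1, 2 and 3 over 15213 genes. Chaetocin replicates 2 and 3 correlated best with another number. Deviations within a group of 3 libraries depend on each other, so these correlations cannot exclude a pairing. The deposited column names number some DMSO libraries differently, and the replicate block used the replicate numbers given here. With the replicate block 7 receptor genes were higher and 1 lower, 7 of their transcripts higher and 0 lower, and 582 of all genes higher and 255 lower. That is 4.6% of receptor genes called and 5.5% of all genes, so the receptor share was below the background in this setting. The cause of these shifts was not tested. Over 129 single results, of genes and of the 12 transcripts called, 1667 values kept direction and side of the threshold. Of the other values 100 missed it, 16 passed it newly and 14 turned sign. The sign turned in genes not called, over the ranges -0.0489 to 0.0288 for nhr-40, -0.0345 to 0.153 for nhr-41, -0.0765 to 0.0307 for nhr-42, -0.0458 to 0.326 for nhr-67, -0.0356 to 0.209 for nhr-85, -0.102 to 0.0419 for nhr-88, -0.117 to 0.0510 for nhr-91 and -0.453 to 0.0832 for unc-31, each with 1 library left out. With unknown depth and 3 libraries a group, small changes at low levels could not be resolved.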

Other observations

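Beside nhr-123 on chromosome V, the small gene M02H5.8 was at 205, 206 and 234 FPKM with chaetocin and 24.1, 28.7 and 33.2 FPKM with DMSO. The groups were far apart (log2 fold change 2.91 ± 0.12; limma, adjusted p = 2.02e-05). It is no receptor gene and was chosen after its values were seen.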
